A study of Mus musculus with 12 samples.

Results

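Kdm3a knock-down F9 cells were compared with control F9 cells at the last stage of a differentiation course, after 6 days, across every gene detected there. The knock-down group held the 2 arrays titled pRS-kdm3a 6d and the control group the 2 arrays titled CTL 6d. A gene was included when at least 1 of its probes had a detection p-value under 0.05 on both arrays of at least 1 of the 2 groups. This gave 9004 of the 11621 genes tested over the 12 arrays of the series. Counted with or without a gene symbol, 15473 probes met the rule, and 21525 were detected on at least 2 of the 12 arrays. Of the 21525, 3378 had no single gene symbol. The same rule gave 9665 genes for the corresponding pair of groups at 72 h and 8601 genes before treatment.

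F9 is a mouse teratocarcinoma cell line. Both 6 d groups had received retinoic acid (RA) alone for 3 days and then RA together with cAMP for 3 more days; the labels give their Kdm3a expression as knock-down and as WT. The other groups were knock-down and control cells after 72 h of RA and at 0 h without treatment, with 2 arrays in each of the 6 groups, labelled as biological replicates. Because both 6 d groups had the same agents for the same time, an action of cAMP cannot be told apart from that of the 3 further days. The labels do not say whether the knock-down line was 1 clone or a pool, nor what the control cells carried.

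Kdm3a is a Jumonji-domain histone demethylase that takes repressive methyl groups off histone tails. In F9 cultures, RA turns embryonal carcinoma cells into primitive endoderm, and RA with cAMP takes them on to parietal endoderm, a cell type that secretes basement membrane rich in type IV collagen and laminin. Visceral endoderm is the other fate of primitive endoderm and takes up nutrients through the endocytic receptors cubilin (Cubn) and megalin (Lrp2). Cubilin needs amnionless (Amn) to reach the cell surface.

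The promoter sequences of these 3 uptake genes are shown because all 3 had lower values in the knock-down, as described further on. They are the 250 bases before the gene start on the gene's own strand, from RefSeq on GRCm38.p6, at chr2:13491877-13492126 (minus strand) for Cubn, chr2:69586030-69586279 (minus strand) for Lrp2 and chr12:111270846-111271095 (plus strand) for Amn. Capitals mark a match to the hypoxia response core ACGTG on either strand.
Cubn: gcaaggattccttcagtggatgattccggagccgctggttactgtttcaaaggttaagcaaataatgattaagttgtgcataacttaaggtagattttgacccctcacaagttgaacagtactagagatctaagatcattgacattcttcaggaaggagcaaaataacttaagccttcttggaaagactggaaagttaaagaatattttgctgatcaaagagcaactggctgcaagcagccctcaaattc
Lrp2: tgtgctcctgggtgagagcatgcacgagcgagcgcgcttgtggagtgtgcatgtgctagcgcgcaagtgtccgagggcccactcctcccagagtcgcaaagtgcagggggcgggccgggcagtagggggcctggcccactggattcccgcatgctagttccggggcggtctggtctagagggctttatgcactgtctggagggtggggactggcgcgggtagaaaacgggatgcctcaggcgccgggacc
Amn: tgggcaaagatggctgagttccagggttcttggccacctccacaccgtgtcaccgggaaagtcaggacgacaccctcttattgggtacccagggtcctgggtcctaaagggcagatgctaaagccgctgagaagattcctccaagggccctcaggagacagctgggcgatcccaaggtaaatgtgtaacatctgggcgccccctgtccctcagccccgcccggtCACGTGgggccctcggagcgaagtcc
The GATA factor core GATAA, the nuclear receptor core AGGTCA and the cAMP response element TGACGTCA were searched on both strands and had 0 matches in these 3 windows. Of 32851 promoters of this length, 22.6% held GATAA, 14% AGGTCA, 1.55% TGACGTCA and 16.6% ACGTG. The match in Amn is the palindrome CACGTG, which holds ACGTG once on each strand, so its 2 matches overlap.

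On the arrays, the raw median intensity was 160 and 212 in knock-down cells and 166 and 212 in control cells at 6 d, and 17342 and 16448 probes were detected in knock-down cells, against 16099 and 16771 in control cells, of 45281 on the array. The 2 knock-down arrays of 6 d correlated with each other at r = 0.954 over the 11621 genes and the 2 control arrays at r = 0.970. The first knock-down array and the first control array correlated at r = 0.970, as high as the control replicates and above the knock-down replicates. The second knock-down array and the second control array were more alike (r = 0.984) than either group's own replicates. These 2 arrays and the second knock-down array of 0 h also had weak positive correlations over 4358 probes undetected on every array (r between 0.0649 and 0.0832). The 2 control arrays of 72 h, at 0.0785, and the second control with the first knock-down array of 0 h, at 0.0686, had correlations of the same size. Counts without these 3 arrays are given further on where they differ. Their removal leaves 1 array in each 6 d group, so that the spread in that fit comes from the other groups.

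Kdm3a itself was lower in knock-down cells at 6 d, at 7.88 and 7.65 log2 intensity, against 9.40 and 9.23 in control cells. The groups did not overlap, and the knock-down mean was 7.76 ± 0.16 against 9.32 ± 0.12 in control cells (SD, n = 2 each), which leaves 34% of the control signal. The log2 difference was -1.56 (SE 0.19), and limma with Benjamini-Hochberg adjustment over all genes gave adjusted p = 0.0827, above the threshold of 0.05. With a background offset of 50, with median centring, with the authors' table, with 5 other settings and without the second knock-down array it was below 0.05. The other 2 detected probes of the gene gave 44.6% and 38.7% of the control signal, and its remaining probe was detected on 0 arrays. The log2 difference was -1.06 at 0 h (adjusted p = 0.1) and -1.71 at 72 h (adjusted p = 0.0339). Mean levels at 0 h, 72 h and 6 d were 9.02, 8.23 and 7.76 in knock-down cells, against 10.08, 9.95 and 9.32 in control cells, and the second 6 d knock-down array had the lowest value of all 12.

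**Figure D1:**
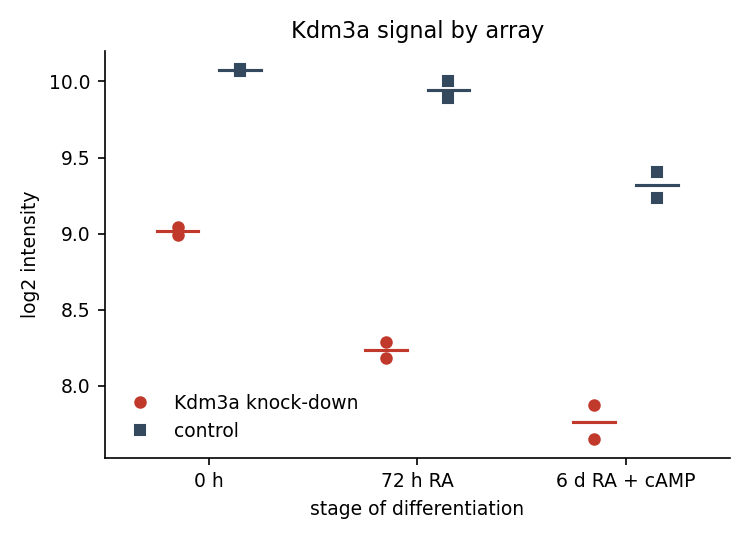
Kdm3a log2 intensity on each of the 12 arrays (points) by stage, with the mean of each group (bars). At 6 d the knock-down arrays sit at 7.88 and 7.65, below the control arrays at 9.40 and 9.23, and the groups are apart at each stage.

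Across the 11621 genes tested, 0 (0%) passed the adjusted threshold at 6 d. An unadjusted limma p under 0.05 was found for 910 genes (7.83%), of which 422 (3.63%) were higher and 488 (4.2%) lower in the knock-down. Of the 8967 detected genes represented by the probe that was tested, 828 (9.23%) had such a p, 385 (4.29%) higher and 443 (4.94%) lower. A difference of at least 2-fold was measured for 213 genes (1.83%), 117 (1.01%) higher and 96 (0.826%) lower. The 2 groups did not overlap for 3126 genes (26.9%), 1609 (13.8%) higher and 1517 (13.1%) lower. Values were higher for 49.1% of genes and lower for 50.9%. The median log2 difference over all genes was -0.0075, and its SD across genes was 0.375, against 0.287 at 72 h and 0.377 at 0 h. The same test called 1 gene (0.00861%) at 72 h, Kdm3a, and 6 genes (0.0516%) at 0 h, with an unadjusted p under 0.05 for 3.53% and 8.23% of genes. The 6 d differences that follow are therefore given as measured, since none of them passed the threshold over all genes.

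Among genes with higher values in the knock-down, Defa20 had the smallest p. Its values were 11.05 and 10.90 in knock-down cells, against 9.34 and 8.93 in control cells. The groups lay far apart, with a log2 difference of 1.84 (SE 0.28, 3.58-fold, limma adjusted p = 0.163). Defa20 belongs to the alpha-defensins, antimicrobial peptides of Paneth cells with many near-identical copies, so its probe may not separate the copies.

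Galectin-1 (Lgals1), a secreted lectin that binds galactose-containing sugars, had 13.21 and 12.82 in knock-down cells, against 11.57 and 11.94 in control cells (log2 difference 1.26, SE 0.23, adjusted p = 0.181). Annexin A2 (Anxa2), which joins membranes to actin in a calcium-dependent way, had 13.81 and 13.72 in knock-down cells, against 12.33 and 12.90 in control cells (log2 difference 1.15, SE 0.23, adjusted p = 0.191). Both are bright on every array, and in each the lowest knock-down value was above the highest control value. Crabp2, the carrier that hands RA to its nuclear receptor, had 8.48 and 8.28 in knock-down cells, against 7.22 and 7.06 in control cells (log2 difference 1.24, adjusted p = 0.181). Nptx2, a secreted neuronal pentraxin that gathers glutamate receptors, had 8.71 and 8.64 in knock-down cells, against 7.56 and 7.29 in control cells (log2 difference 1.25). Hyi, a putative hydroxypyruvate isomerase, had 8.76 and 8.69 in knock-down cells, against 7.44 and 7.78 in control cells (log2 difference 1.12). For each of these 3 genes the replicates of a group lay close together and the groups did not overlap.

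Of the 15 genes named by smallest p in this direction, 8 were undetected on both control arrays, so only a lower bound of their fold holds. Bves, a membrane protein of muscle that binds cAMP, had 7.09 and 6.65 in knock-down cells, against 4.94 and 5.33 in control cells, at least 2.39-fold higher. Tmem38a, an intracellular cation channel, had 7.52 and 6.76 in knock-down cells, against 5.62 and 4.95 in control cells, at least 2.88-fold higher. The other bounds were at least 1.94-fold for Vstm5, 2.23-fold for Osbpl5, an oxysterol-binding protein relative, 1.59-fold for Foxe1, a forkhead factor of the thyroid, 1.35-fold for Upk2, a urothelial membrane protein, 1.27-fold for Ldc1 and 1.13-fold for Xlr4c. Each bound sets the mean of the knock-down arrays against the lowest signal that counts as detected, or the control's own signal where that was higher. Xlr4c is 1 of a family of near-identical genes on the X chromosome, and its copies may share the probe. C1qtnf12, a secreted relative of complement C1q, was detected on 1 control array and had 7.19 and 6.77 in knock-down cells, against 5.50 and 5.79 in control cells (log2 difference 1.34).

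Among genes with lower values, the growth factor Fgf1 came after Kdm3a. Fgf1 was undetected on both knock-down arrays, at 5.15 and 5.04, and detected on both control arrays, at 6.58 and 6.68. It was at least 2.1-fold lower (log2 difference -1.53, SE 0.24, limma adjusted p = 0.163). Coa3, which helps to assemble complex IV of the respiratory chain, had 10.58 and 10.49 in knock-down cells, against 11.76 and 11.75 in control cells (log2 difference -1.22, SE 0.20, adjusted p = 0.163). Replicates of Coa3 were nearly identical, and 43% of the control signal was left. Pdlim4, an adaptor of the actin cytoskeleton, had 7.73 and 7.92 in knock-down cells, against 10.18 and 9.54 in control cells, the largest difference of the 30 genes (-2.03, SE 0.35, adjusted p = 0.173). Another of its probes had the opposite sign.

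Dpp4, a cell surface peptidase, had 9.50 and 9.01 in knock-down cells, against 11.16 and 10.45 in control cells (log2 difference -1.55, adjusted p = 0.181). Syap1, a signalling adaptor, had 9.66 and 9.29 in knock-down cells, against 10.53 and 10.67 in control cells (log2 difference -1.13, adjusted p = 0.181). Smarca1, an ATPase of the ISWI family of chromatin remodellers, had 7.46 and 7.90 in knock-down cells, against 8.96 and 9.01 in control cells (log2 difference -1.31, adjusted p = 0.201). In all 3 genes both knock-down arrays lay below both control arrays. Esrp1, a splicing regulator of epithelial cells, had 6.31 and 5.41 in knock-down cells, against 7.32 and 7.38 in control cells (log2 difference -1.48, adjusted p = 0.201). Syt1, the calcium sensor of synaptic vesicles, had 6.35 and 6.32 in knock-down cells, against 7.30 and 7.51 in control cells (log2 difference -1.07). Pex7, the receptor that brings enzymes into peroxisomes, had 6.45 and 6.73 in knock-down cells, against 7.48 and 7.84 in control cells (log2 difference -1.07), and 1 of its probes had the opposite sign.

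Apart from Fgf1, 5 of these 15 genes were undetected on both knock-down arrays and detected on both control arrays. They were Myo5c, a myosin of secretory epithelia (at least 1.66-fold lower), the tyrosine kinase Frk (at least 1.77-fold), the calcium-binding protein Kcnip3 (at least 1.51-fold), the metal importer Slc39a8 (at least 2.23-fold) and the kinase Map3k14 of the non-canonical NF-kappaB pathway (at least 1.49-fold).

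**Figure D2:**
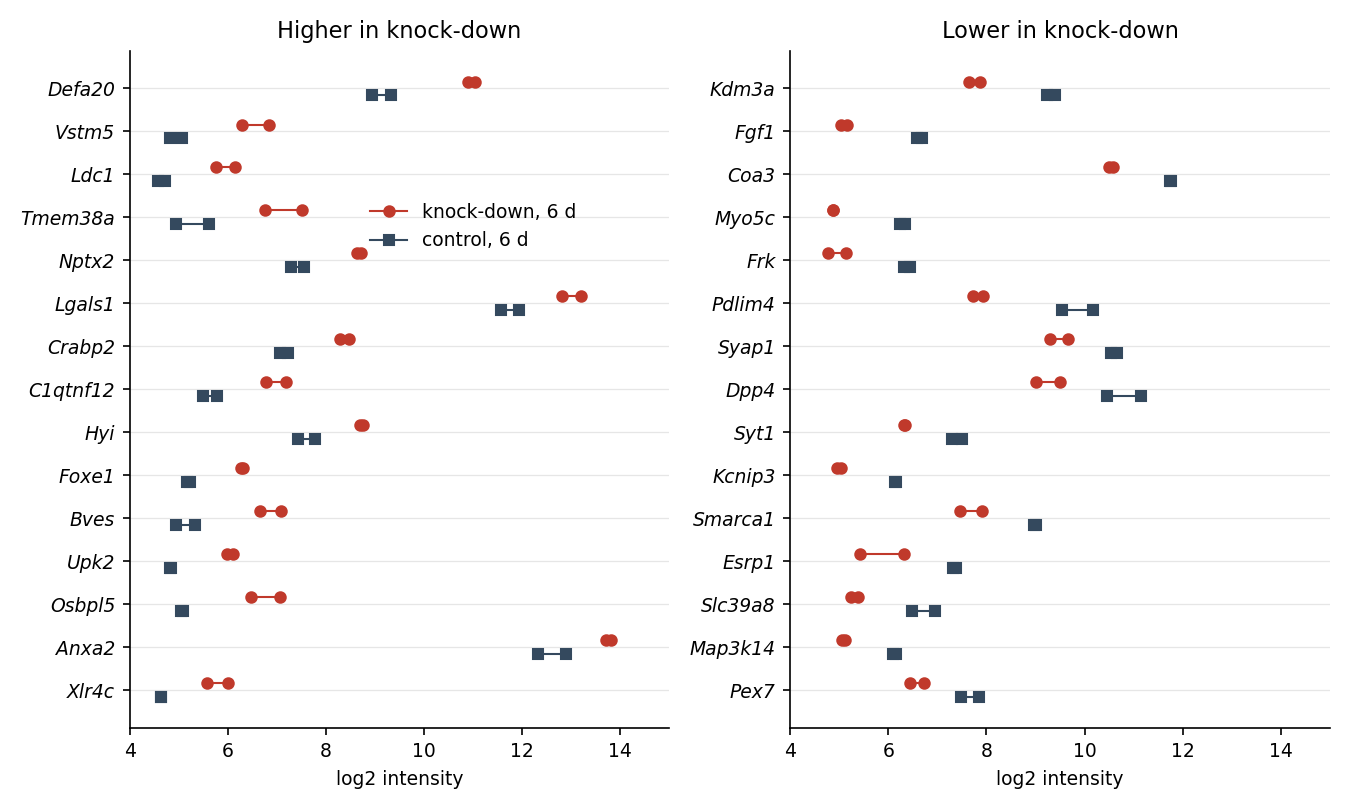
Log2 intensity of the 30 genes named by smallest p on the 2 knock-down arrays (circles) and the 2 control arrays (squares) of 6 d, with the genes higher in the knock-down on the left and those lower on the right. The groups of each gene are apart, as the rule that chose them required, and differences run between 1.08 and 1.86 on the left and between -1.04 and -2.03 on the right.

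The differences at the earlier stages came from other arrays than those at 6 d. The spread of a gene, however, was fitted to all 12 arrays and stood behind its p at every stage. Genes chosen by a small p at 6 d tend to have a small spread. Their counts of small p at the earlier stages are therefore not independent of the choice. Of the 15 genes higher at 6 d, 13 had higher values in the knock-down at 72 h, 6 of them with an unadjusted limma p under 0.05, and 11 at 0 h, 5 with such a p. Of the 14 genes lower at 6 d besides Kdm3a, 12 had lower values at 72 h, 9 with such a p, and 11 at 0 h, 5 with such a p. Over all genes, 51.1% had higher and 48.9% lower values at 72 h, 1.53% and 2% with such a p. At 0 h these shares were 50.2% and 49.8%, and 4.05% and 4.17% with such a p. The median log2 differences of the 15 higher genes were 0.13 at 0 h, 0.46 at 72 h and 1.26 at 6 d, and those of the 14 lower genes -0.30, -0.79 and -1.35. The last value of each set was used to choose the genes and the first ones were not. Ldc1, Foxe1, Upk2 and Xlr4c were undetected in both groups at 72 h. At 0 h this held for Defa20, Vstm5, Ldc1, Foxe1, Osbpl5 and Xlr4c, and for Frk, Pdlim4, Syt1, Kcnip3, Slc39a8 and Map3k14. The sign of such a gene at that stage is set by background, and it enters these counts and medians. Coa3 had a log2 difference of -1.43 at 0 h and -1.45 at 72 h. Fgf1 was undetected on both knock-down arrays at 0 h and on 1 of 2 at 72 h, so that the size of its difference depends on background there. Pdlim4, undetected in both groups at 0 h, had -2.01 at 72 h. Over all 11621 genes the 6 d difference correlated at r = 0.456 with that at 72 h and at r = 0.206 with that at 0 h, with no array in common; genes are not independent replicates.

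**Figure D3:**
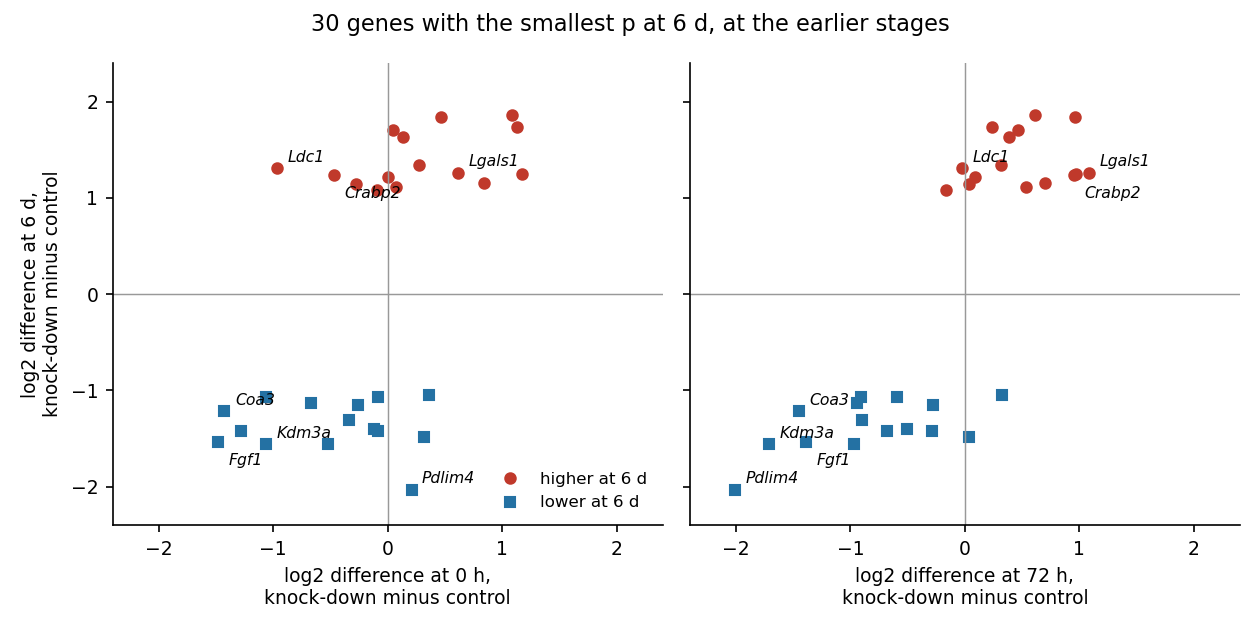
Log2 difference between knock-down and control at 6 d (vertical axis) against that at 0 h (left) and at 72 h (right) for the 30 genes named at 6 d; each point is 1 gene. At 72 h, 13 of the 15 genes higher at 6 d and 13 of the 15 lower ones, Kdm3a among them, lie on the same side of 0. Some of the 30 genes were undetected in both groups at 0 h or 72 h, where their place depends on background.

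Tested directly, the knock-down difference at 6 d differed from that at 72 h for 0 genes (0%), with an unadjusted limma p under 0.05 for 223 (1.92%), and from that at 0 h for 0 genes (0%), with such a p for 696 (5.99%). Gjb2, the gap junction protein connexin 26, came nearest. It was detected on both knock-down arrays of 6 d, at 6.16 and 6.00, and undetected on both control arrays, at 4.68 and 5.45, so that it was at least 1.38-fold higher at 6 d. At 0 h it was undetected on both knock-down arrays and detected on both control arrays. The fitted 6 d difference exceeded that at 0 h by 2.97 (SE 0.39, limma adjusted p = 0.0782), a size that depends on background at both stages. Ldc1 had the same adjusted p, but it was undetected in both groups at 0 h and 72 h, so that no difference was measured there. Gata6, a transcription factor that drives endoderm, had a fitted log2 difference of 1.89 at 0 h (limma adjusted p = 0.0475), where it was undetected on both control arrays. At 6 d its log2 difference was -0.18 (adjusted p = 0.943), and its values were 12.04 and 12.49 in knock-down cells, against 12.36 and 12.52 in control cells. One other probe of Gata6 had the opposite sign at 6 d. Tent5a, a noncanonical poly(A) polymerase, was likewise undetected on both control arrays of 0 h, and had a log2 difference of -0.80 at 6 d (limma adjusted p of the difference between stages 0.194). Crabp2, given above, came next among those higher at 6 d than at 0 h, by 1.71 (adjusted p = 0.535). Against 72 h, Map3k14, Vax1, a homeobox gene, Ldc1, Foxe1 and Gjb2 had the smallest p, and each adjusted p was 1. Ccnd1, cyclin D1, had -1.92 at 0 h and -0.06 at 6 d. Of the 6 genes called at 0 h, Coa3 alone had a 6 d difference of the same sign and over 1 log2 unit.

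Most genes of the primitive endoderm list had lower values in knock-down cells at 6 d. The list also held Cubn, Lrp2 and Amn, the uptake genes of visceral endoderm named above. Like the other gene lists, it was chosen with earlier results of these data known, so its counts are not independent of that choice. Of 15 tested, 14 had lower values, against 50.9% of all genes, and 7 had an unadjusted limma p under 0.05 in that direction, against 4.2% of all genes, while 0 were higher with such a p. The list's median log2 difference was -0.42, against -0.0075 for all genes. It was 0.04 at 0 h and -0.29 at 72 h. At 0 h, however, Cubn was undetected in both groups. The list genes Gata4, Sox17, Foxa2 and Pdgfra had no 0 h value above the highest of Cubn. Differences of genes this dim are set by background, and they enter the 0 h median. That median therefore cannot show whether the list's difference grew over the course. In bulk cultures fewer cells of a type and less RNA per cell cannot be told apart.

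The uptake receptors were among these genes. Cubn had 8.65 and 7.29 in knock-down cells, against 10.28 and 9.34 in control cells (log2 difference -1.84, SE 0.48, 27.9% of control, limma adjusted p = 0.304). Lrp2 had 10.24 and 9.13 in knock-down cells, against 11.16 and 10.37 in control cells (log2 difference -1.08, SE 0.40, adjusted p = 0.493). Amn had 8.69 and 7.79 in knock-down cells, against 9.65 and 8.99 in control cells (log2 difference -1.08, SE 0.41, adjusted p = 0.527). In all 3 the second array was the lower of each group, and both knock-down arrays lay below both control arrays. Dab2, the clathrin adaptor that serves these receptors, had 11.28 and 11.39 in knock-down cells, against 12.25 and 12.30 in control cells (log2 difference -0.94, SE 0.30, adjusted p = 0.435). Cubn was undetected in both groups at 0 h, so that no difference was measured there, and its difference at 72 h was -1.07. The differences of Amn were 0.21 at 0 h and -1.09 at 72 h. Lrp2 differed by -0.13 at 0 h and -0.07 at 72 h. None of these stages differed from 6 d past the threshold for these genes (smallest limma adjusted p = 0.627, for Dab2 at 0 h).

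Foxq1, a forkhead transcription factor, had 11.26 and 11.30 in knock-down cells, against 12.05 and 12.07 in control cells (log2 difference -0.78, SE 0.22, adjusted p = 0.377). Pdgfra, the receptor for platelet-derived growth factor on primitive endoderm, had 10.85 and 10.21 in knock-down cells, against 11.91 and 10.90 in control cells (log2 difference -0.88, SE 0.32, adjusted p = 0.493). Foxq1 replicates lay close together, whereas the arrays of Pdgfra spread widely within each group and the groups nearly met. The transcription factors that define the lineage had small differences of -0.18 for Gata6, -0.22 for Sox17, -0.19 for Sox7 and -0.01 for Gata4, and in each the groups overlapped. Foxa2, a further factor of the list, was its only gene with a higher value (log2 difference 0.24). It had 7.47 and 7.81 in knock-down cells, against 6.87 and 7.93 in control cells, and overlapped.

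**Figure D4:**
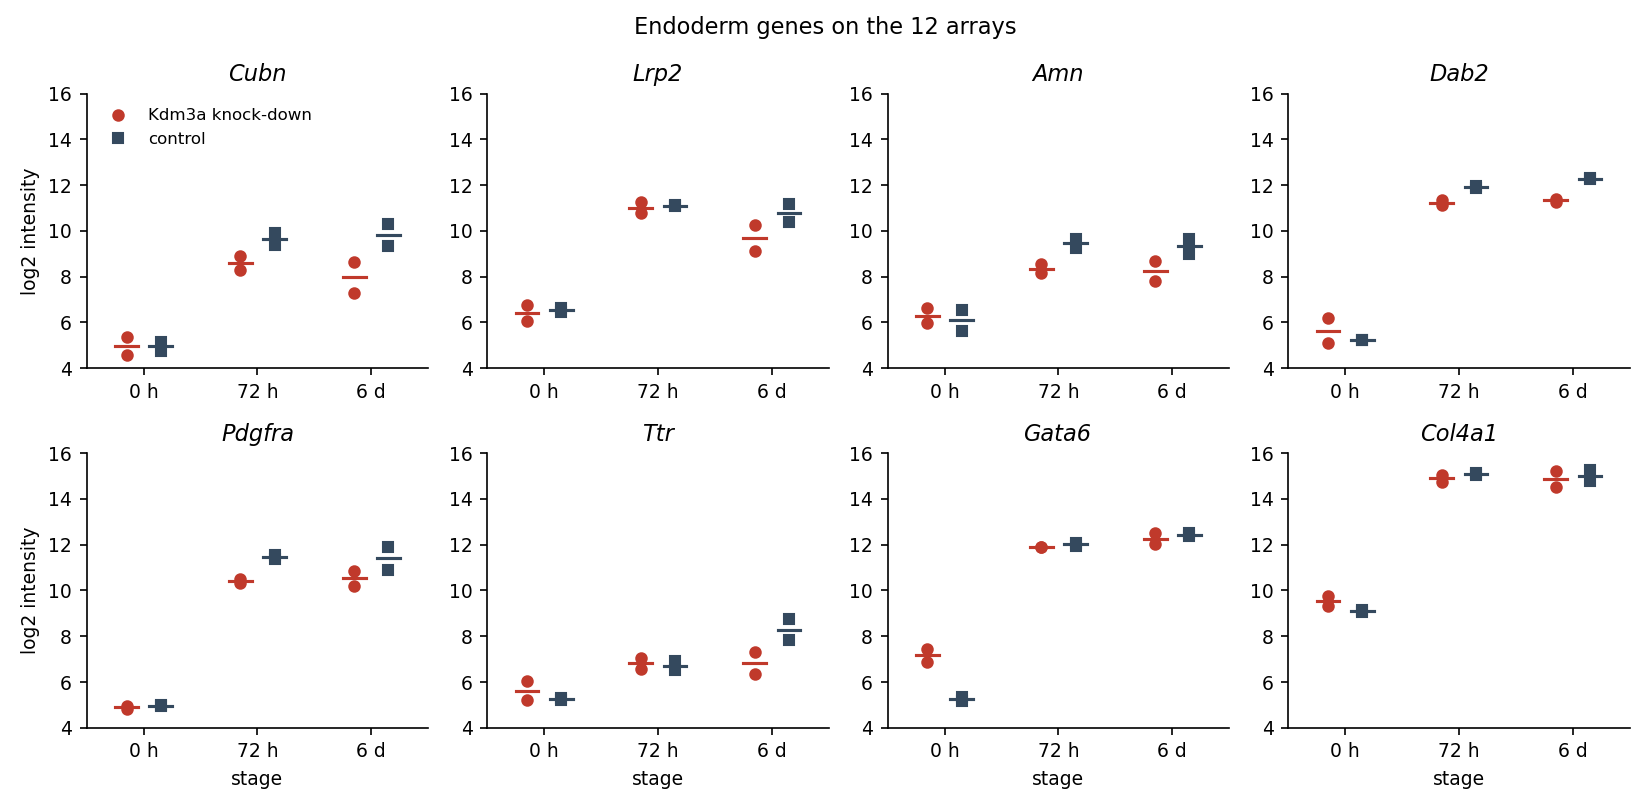
Log2 intensity of 8 endoderm genes on the 2 knock-down arrays (circles) and 2 control arrays (squares) of each stage, with group means (bars). At 6 d Cubn, Lrp2, Amn, Dab2 and Ttr lie lower in the knock-down on both arrays, while the arrays of Gata6 and Col4a1 overlap between groups.

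Visceral endoderm genes showed a similar direction. Of 20 on the list, 9 passed the detection filter, of which 7 were detected on both knock-down arrays and 8 on both control arrays. All 9 had lower values in the knock-down at 6 d, against 50.9% of all genes, and 4 had an unadjusted limma p under 0.05. The median log2 difference was -0.72. The median level of the 9 genes on each array was 7.10 and 6.34 in knock-down cells, against 8.57 and 7.06 in control cells, so the groups overlapped. With no filter 19 genes could be tested, 15 of them lower, 5 with such a p, with a median of -0.22. Ttr, the thyroid hormone and retinol carrier transthyretin, had 7.32 and 6.34 in knock-down cells, against 8.74 and 7.84 in control cells (log2 difference -1.46, SE 0.41, adjusted p = 0.359). At 0 h Ttr was detected on 1 knock-down array and undetected in control cells, and its difference at 72 h was 0.10. Rhox5, an X-linked homeobox gene, had 11.67 and 11.85 in knock-down cells, against 12.67 and 12.38 in control cells (log2 difference -0.77, SE 0.21, adjusted p = 0.326). It was already bright at 0 h, with means of 11.92 in knock-down and 11.46 in control cells (log2 difference 0.46). Its signal was thus not particular to endoderm here.

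The secreted Wnt inhibitor Dkk1 had 6.14 and 4.75 in knock-down cells, against 7.51 and 6.15 in control cells (log2 difference -1.38, SE 0.47, adjusted p = 0.462), and the values met at the edge. Ihh, a hedgehog ligand, had 7.10 and 6.38 in knock-down cells, against 8.57 and 7.06 in control cells, and overlapped. Afp and Apoa1, defining genes of mature visceral endoderm, did not pass the filter. The counts of the 2 endoderm lists varied with the arrays. Without the first control array, 4 primitive and 1 visceral endoderm genes were lower with an unadjusted limma p under 0.05, without the second knock-down array 5 and 1, and without the 3 arrays named above 5 and 4.

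Parietal endoderm genes, by contrast, showed no common direction at 6 d. Of 21 tested, 14 were higher and 7 lower, and 1 had an unadjusted limma p under 0.05, the keratin gene Krt19, at 9.37 and 9.12 in knock-down cells, against 8.18 and 9.02 in control cells (log2 difference 0.64, adjusted p = 0.602). The median was 0.06. Among basement membrane genes the list's collagen and laminin chains were bright in both lines. Col4a1, a chain of type IV collagen, had 15.23 and 14.52 in knock-down cells, against 15.24 and 14.78 in control cells (log2 difference -0.14, SE 0.28), and Lama1, a laminin chain, had 15.19 and 14.60 in knock-down cells, against 15.10 and 14.39 in control cells (log2 difference 0.15, SE 0.29). The collagen-binding protein gene Sparc (0.08), the laminin chain genes Lamb1 (0.06) and Lamc1 (0.12), the activin antagonist Fst (-0.04) and the plasminogen activator Plat (0.03) had log2 differences of at most 0.12 in size. The nidogen genes, whose products link laminin to collagen, differed more, with overlapping groups. Nid2 had 11.04 and 9.66 in knock-down cells, against 11.38 and 10.24 in control cells (log2 difference -0.46), and Nid1 had 11.72 and 10.51 in knock-down cells, against 11.42 and 10.19 in control cells (log2 difference 0.31). Thbd, the parietal endoderm surface protein thrombomodulin, had 6.87 and 6.95 in knock-down cells, against 7.37 and 7.31 in control cells (log2 difference -0.43, adjusted p = 0.738). The list median was -0.33 without the first knock-down array and 0.43 without the second.

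Genes that had risen in control cells between 0 h and 72 h, 946 of 11621 (8.14%), gave a broader view of the RA response. Their rise was measured on other arrays than the 6 d differences. The spread behind each p, however, was fitted to every array of the series. Genes that had risen or fallen were chosen by a small p and so tend to have a small spread. Their counts of small p at 6 d are therefore not independent of the choice. Of the genes that had risen, 101 (10.7%) were lower and 48 (5.07%) higher in the knock-down at 6 d with an unadjusted limma p under 0.05. The median log2 difference of the genes that had risen was -0.08. Of the 765 that had fallen (6.58%), 40 (5.23%) were lower and 52 (6.8%) higher, with a median of -0.02. The 9910 other genes had 3.5% lower and 3.25% higher. Without the second knock-down array the median of the genes that had risen was 0.03.

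Among calcium-binding and lectin genes, 4 of 19 were higher and 1 lower with an unadjusted limma p under 0.05, against 3.63% and 4.2% of all genes (median 0.15). Besides Lgals1 and Anxa2, these were Lgals3, galectin-3, at 12.47 and 11.37 in knock-down cells, against 10.26 and 10.86 in control cells (log2 difference 1.36, SE 0.36, adjusted p = 0.322), and S100a6, at 11.70 and 10.72 in knock-down cells, against 9.79 and 10.09 in control cells (log2 difference 1.27, SE 0.36, adjusted p = 0.361). In both the first knock-down array stood about a log2 unit above the second. Anxa4 was the lower one, with a log2 difference of -0.51. Without the second control array 7 of the list were higher with such a p and 0 lower, without the 3 arrays 7 and 2, and the median was -0.19 without the first control array.

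Imprinted genes had 4 higher and 0 lower of 18 with an unadjusted limma p under 0.05, against 3.63% and 4.2% of all genes (median 0.17). Peg10, a retrotransposon-derived gene of the placenta, had 7.93 and 7.48 in knock-down cells, against 6.84 and 6.88 in control cells (log2 difference 0.85, adjusted p = 0.304), and 1 of its probes had the opposite sign. Cdkn1c, the CDK inhibitor p57, had 8.24 and 8.07 in knock-down cells, against 6.80 and 7.32 in control cells (log2 difference 1.10, adjusted p = 0.352), close to its 1.12 at 0 h. Nnat and Impact were the other 2, with log2 differences of 1.03 and 0.53. The groups of these 4 did not overlap, as for 26.9% of all genes. Without the second knock-down array 8 were higher, and without the first 3 were higher, 3 lower and the median -0.17. Dlk1, Meg3 and Rian, which share 1 imprinted cluster, had values that overlapped, with 12.75 and 10.34 for Dlk1 in knock-down cells, against 11.65 and 11.00 in control cells.

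Among p53 targets and apoptosis genes, 4 of 27 were higher and 1 lower with an unadjusted limma p under 0.05, against 3.63% and 4.2% of all genes (median 0.20). Aen, a nuclease induced by p53, had 6.72 and 7.27 in knock-down cells, against 5.20 and 5.99 in control cells (log2 difference 1.40, SE 0.30, adjusted p = 0.223). Plk3 (0.73), Ei24 (0.62) and Apaf1 (0.61), the core of the apoptosome, were the others that were higher, and the stress sensor Sesn2 (-0.71) was lower. Without the 3 arrays 12 of 27 were higher with such a p, and without the first control array 1. The list's median was 0.55 at 0 h and 0.49 at 72 h, larger than at 6 d.

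Cell cycle genes split. Rb1, the retinoblastoma protein, had 9.37 and 9.31 in knock-down cells, against 8.51 and 8.71 in control cells (log2 difference 0.73, adjusted p = 0.343), whereas its relative Rbl1 had 5.63 and 5.78 in knock-down cells, against 6.56 and 6.82 in control cells (log2 difference -0.98, adjusted p = 0.262). Neither gene overlapped between groups. Of 36 DNA replication and mitosis genes 32 had lower values, against 50.9% of all genes, with a median of -0.24. Without the first knock-down array the direction turned, with 24 higher, 12 lower and a median of 0.11. With all arrays 2 had an unadjusted limma p under 0.05, the ubiquitin-conjugating enzyme gene Ube2c and the primase gene Prim1. Both were undetected on the knock-down arrays, at least 1.32-fold and 1.45-fold lower, and the count was 16 without the second knock-down array, 0 without the first, 10 without the 3 arrays and 1 without the second control array.

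Pluripotency genes behaved likewise, with 25 of 30 lower, against 50.9% of all genes, and a median of -0.38. The 2 with an unadjusted limma p under 0.05 were Dnmt3b, a DNA methyltransferase, at 10.81 and 11.30 in knock-down cells, against 11.71 and 11.63 in control cells (log2 difference -0.62, adjusted p = 0.573), and Dppa5a (-0.46, adjusted p = 0.606). For Dnmt3b, 1 other probe had the opposite sign. Pou5f1, which encodes the pluripotency factor Oct4, had 10.83 and 12.38 in knock-down cells, against 11.94 and 12.08 in control cells. The first knock-down array was the lowest and the second the highest of the 4, and the list's median was 0.11 without the first, with 0 lower, and -0.68 without the second, with 17 lower at such a p. Such transcripts were still detected after 6 days in both lines.

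Of all genes tested, 3.63% were higher and 4.2% lower at 6 d with an unadjusted limma p under 0.05, and the signalling lists are read against these shares. Of 21 RA signalling genes 3 were higher and 1 lower with an unadjusted limma p under 0.05: Crabp2, given above, the nuclear receptor Nr6a1 (0.59) and the retinal reductase Dhrs3 (0.45) were higher, and the retinol dehydrogenase Rdh10 (-0.92) was undetected on both knock-down arrays and at least 1.31-fold lower. Of 23 genes of FGF signalling and its feedback 1 was higher and 4 lower. The ligand gene Fgf10 had 9.68 and 9.76 in knock-down cells, against 10.63 and 10.04 in control cells (log2 difference -0.61). The receptor gene Fgfr2 had 10.31 and 9.70 in knock-down cells, against 11.19 and 10.42 in control cells (log2 difference -0.80, limma adjusted p = 0.489). Neither gene overlapped between groups, although 1 other probe of Fgf10 and 1 other probe of Fgfr2 had the opposite sign. Fgf3, undetected on the knock-down arrays, was at least 1.28-fold lower, and Fgf15 had a log2 difference of -0.74. Phlda1, an early response gene, was the higher one (0.79). The FGF counts were 4 higher and 7 lower without the 3 arrays, and 2 were lower without the first control array or the first knock-down array.

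Of 26 Wnt pathway genes 2 were higher and 1 lower with such a p, against 3.63% and 4.2% of all genes. Sp5, a direct target of beta-catenin, had 6.91 and 6.25 in knock-down cells and was undetected in control cells, at 4.99 and 5.54, at least 1.95-fold higher. The ligand gene Wnt7b was the other one that was higher (log2 difference 1.07, adjusted p = 0.569), with its first knock-down array well above the second, and Dkk1, given above, was the lower one. Of 16 cAMP-responsive genes 12 had higher values (median 0.34) and 1 an unadjusted limma p under 0.05, the phosphatase gene Dusp1, at 10.15 and 9.52 in knock-down cells, against 8.75 and 9.26 in control cells (log2 difference 0.83, adjusted p = 0.467). This count was 6 without the second control array. Of 25 Hox genes 2 were higher, Hoxa5 (log2 difference 0.57) and Hoxc13 (undetected in control cells, at least 1.28-fold higher), and 0 were lower. Without the 3 arrays 7 Hox genes were higher, and without the first control array 0.

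Among other histone demethylases no gene besides Kdm3a, of 22 tested, had an unadjusted limma p under 0.05, and the median of all 22 was 0.03. The nearest was Phf8, at 6.70 and 6.54 in knock-down cells, against 5.92 and 6.20 in control cells (log2 difference 0.56, adjusted p = 0.634), with 1 of its probes of opposite sign. Rcor1, a corepressor that works with the demethylase Kdm1a, had 10.12 and 10.22 in knock-down cells, against 10.83 and 11.20 in control cells (log2 difference -0.84, adjusted p = 0.304). Of 10 genes tied to Kdm3a in work on other cells, 0 had such a p, and Slc2a1, a glucose transporter, and the pluripotency factor Tfcp2l1 had log2 differences of 0.56 and -0.31 with overlapping groups. Of 28 hypoxia and glycolysis genes 3 were lower, the phosphofructokinase genes Pfkm (log2 difference -0.60) and Pfkp (-0.82) and the mitochondrial gene Higd1a (undetected in knock-down cells, at least 1.11-fold lower); this count was 0 without the first knock-down array or the second control array and 5 without the second knock-down array. Of 15 genes on a list of histone methylation at repressed chromatin and its partner proteins 2 were lower, against 4.2% of all genes. These were Rcor1 and Dnmt3b, neither of which is a histone methyltransferase.

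Housekeeping groups had medians near 0. Of 49 cytosolic ribosomal protein genes 1 was lower with an unadjusted limma p under 0.05, Rpl34 (-0.46), and of 39 oxidative phosphorylation genes 2 were lower, Coa3 and Sdhb (-0.73), with medians of -0.02 and -0.01. Of 24 lysosomal genes, of 23 collagen modification and secretory chaperone genes and of 20 interferon response genes 0 had such a p in either direction, against 3.63% of all genes higher and 4.2% lower. The 23 collagen modification and chaperone genes had no stable direction. With all arrays 20 had lower values (median -0.14), but 15 had higher values without the first control array (median 0.20) and 16 without the second knock-down array (median 0.12). The collagen lysyl hydroxylase gene Plod2 had 11.41 and 10.59 in knock-down cells, against 12.22 and 11.07 in control cells, and overlapped.

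Of 21 contractile cytoskeleton genes 20 had higher values, against 49.1% of all genes (median 0.21, and between 0.09 and 0.44 with 1 array of 6 d left out), but 1 had an unadjusted limma p under 0.05, the actin cross-linker gene Actn1, at 12.72 and 12.41 in knock-down cells, against 12.00 and 12.06 in control cells (log2 difference 0.53, adjusted p = 0.52). Of 26 keratin and junction genes 17 had higher values (median 0.28), but 9 did without the first knock-down array (median -0.13). With an unadjusted limma p under 0.05, 3 were higher, Gjb2, Krt19 and the desmosome gene Pkp2, at 8.57 and 8.06 in knock-down cells, against 7.16 and 7.66 in control cells (log2 difference 0.91, adjusted p = 0.401), and 1 was lower, Esrp1. The higher count was 13 without the second knock-down array, against 2 higher and 5 lower without the first. Of 16 YAP and SRF targets 1 was higher, Ankrd1, undetected in control cells and at least 1.37-fold higher.

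The other lists are given by their genes with an unadjusted limma p under 0.05, a p found for 3.63% of all genes higher and 4.2% lower. Of 30 genes of the TGF-beta, BMP and Nodal pathway 2 were lower, the ligand gene Bmp7 (log2 difference -0.67) and the signal transducer gene Smad5 (-0.55). Of 24 stress genes of the unfolded protein and amino acid responses 2 were lower, Stc2, a secreted glycoprotein, at 8.96 and 8.85 in knock-down cells, against 10.28 and 9.31 in control cells (log2 difference -0.88, adjusted p = 0.467), and Sesn2. Of 18 cholesterol synthesis genes 16 had lower values (median -0.26) and 1 such a p, Sc5d, undetected in knock-down cells and at least 1.24-fold lower; 6 were lower without the 3 arrays and 0 without the first knock-down array. Of 11 heat shock genes 1 was higher, the chaperone gene Hspa1a, detected on 1 knock-down array and undetected in control cells.

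**Figure D5:**
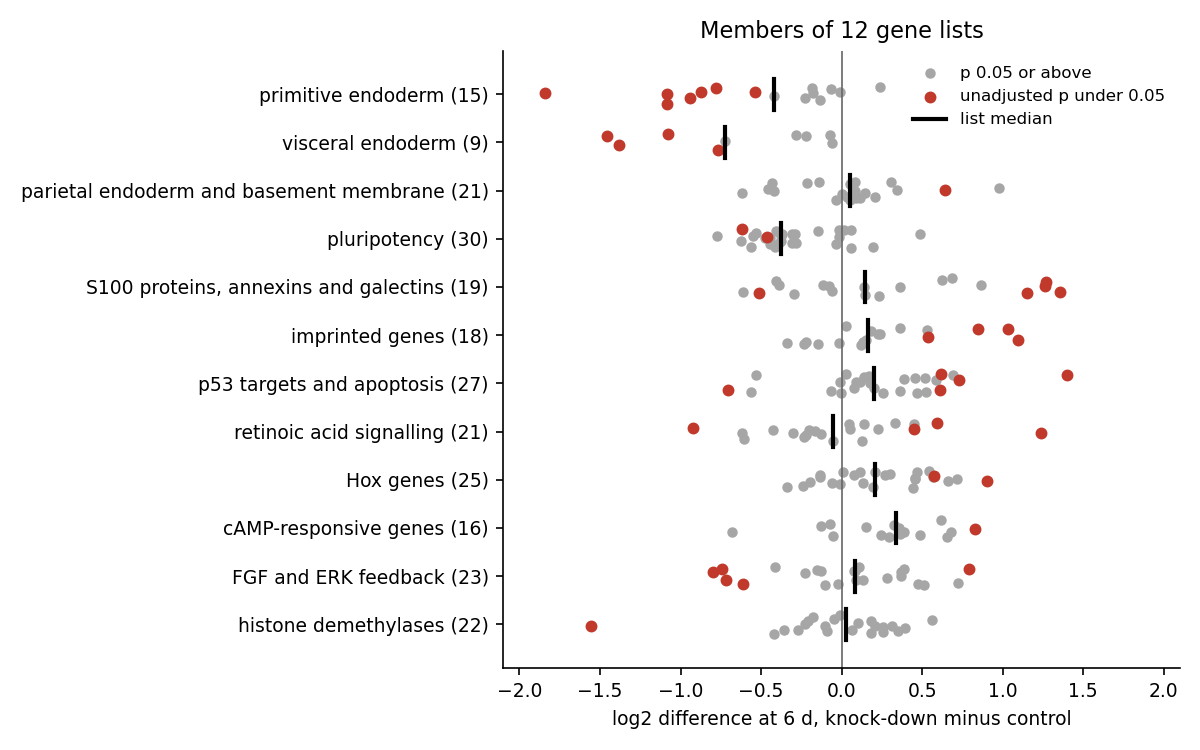
Log2 difference at 6 d, knock-down minus control, for each tested member (points) of 12 gene lists, with the list median (bar) and the number tested in brackets; red points have an unadjusted limma p under 0.05. The primitive and visceral endoderm medians lie at -0.42 and -0.72, and the parietal endoderm median at 0.06.

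Markers of other cell types were few and mostly dim in both lines. Of the macrophage and blood list 5 of 19 genes were tested and 1 was detected on both arrays of each group, Cd14, at 6.28 and 6.59 in knock-down cells, against 5.81 and 5.85 in control cells (log2 difference 0.60), and the summed intensity of the 5 was 224 and 256 in knock-down cells, against 232 and 211 in control cells. Of the fibroblast list 4 were detected on both knock-down arrays and 5 on both control arrays, of 18 listed, with 0 of 10 tested past an unadjusted limma p of 0.05. The 12 neuroectoderm genes tested, of 21 listed, had summed intensities of 2214 and 2217 in knock-down cells, against 2198 and 2196 in control cells, with Zic1 at 6.27 and 6.51 in knock-down cells and undetected in control cells (at least 1.71-fold higher) and Elavl3 (undetected in control cells, at least 1.03-fold higher) the other one with such a p. For Elavl3, 1 other probe had the opposite sign. Of 9 mesoderm and primitive streak genes tested, Kdr was higher and Eomes lower with an unadjusted limma p under 0.05. Kdr was detected on 1 knock-down array and undetected in control cells, and no lower bound of its fold holds. Of 10 germ cell genes the helicase gene Ddx4 had 6.00 and 6.16 in knock-down cells and was undetected in control cells (at least 1.38-fold higher), and Tex14 was lower (log2 difference -0.79). Of 11 trophoblast genes 6 had higher and 5 lower values (median 0.29, and -0.21 without the first knock-down array), and 2 were lower with an unadjusted limma p under 0.05. Without the second knock-down array 4 were higher with such a p. Plac1, a placental membrane protein, had 7.82 and 6.90 in knock-down cells, against 9.57 and 8.42 in control cells (log2 difference -1.63, SE 0.41, limma adjusted p = 0.304), and Eomes, which is on both lists, had a log2 difference of -0.96 (adjusted p = 0.586). Whether any such cells had a part in the differences above was not tested.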

How the data were processed

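RNA of 12 samples, 2 for each of 6 groups, was measured on Illumina bead arrays from 200 ng of total RNA each, per the labels' protocols. The authors deposited a non-normalized table of probe intensity with a detection p-value for each array, per the file headers, and a processed table of intensity values. Each column of the second ranked its probes as the matching array did (Spearman's rho 1), with a median between 184.1 and 184.4 and sorted values within 0.7 of the mean of the sorted raw columns, so it holds quantile-normalized, linear intensity. The slide of each array is in neither the headers nor the labels.

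Starting from the non-normalized table, limma's nec (limma 3.58.1, R 4.3.3) corrected the background, inferring negative controls by detection p and adding an offset of 16, arrays were quantile-normalized and values taken as log2. Probes with detection p under 0.05 on at least 2 of 12 arrays were kept. Of 45281 probes, 34885 had 1 gene symbol in GEO's platform annotation, 18 several and 10378 none; 34807 matched RefSeq. The brightest probe stood for a gene. A mean per group was fitted to all 12 arrays with lmFit and eBayes, which had 6 residual degrees of freedom and 4.64 prior ones, and p-values were adjusted by Benjamini-Hochberg over 11621 genes. The number of arrays limits the precision, and levels are not compared between probes.

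Text names were taken as Kdm3a, the 15 genes of smallest p in each direction among those detected whose groups do not overlap, up to 2 members of each of 36 lists and 3 per direction for each difference between stages, passing over uncharacterised symbols; other list members were added to complete a count or a role. The members and lists were chosen with earlier results of these data known. A fold against a group undetected on both arrays is a lower bound. Promoters were found for 71 of 99 named genes. The fit was tested on simulated data. Alternatives covered the arrays fitted, a replicate block, offset, normalization, filters, probe choice, array weights, an intensity trend, each array left out, and, chosen after seeing the data, a block for or removal of 3 arrays with correlated background and a test of each probe. Slide as a block was not run, as no slide is known.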

Additional observations from a re-analysis of the deposited data

Results flagged for a closer look

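Probes with no gene symbol in the annotation were left out of the gene comparison. When each of the 21525 detected probes was tested on its own at 6 d, 8 passed limma's adjusted threshold, and 5 of these were among the 3378 probes without a single gene symbol. All 5 were higher in the knock-down. ILMN_2732554 had 9.80 and 10.03 in knock-down cells, against 7.28 and 7.61 in control cells (log2 difference 2.47, adjusted p = 0.0217). ILMN_1254739 had 9.40 and 9.43 in knock-down cells, against 6.95 and 7.33 in control cells (log2 difference 2.27, adjusted p = 0.0348). ILMN_1212867 had 11.49 and 11.44 in knock-down cells, against 9.68 and 9.50 in control cells (log2 difference 1.88), and ILMN_2731509 had 10.04 and 9.92 in knock-down cells, against 7.96 and 8.11 in control cells (log2 difference 1.94), both with adjusted p = 0.0348. In each probe the groups were far apart and the replicates close. ILMN_2669974 had 11.34 and 11.33 in knock-down cells, against 9.36 and 9.42 in control cells (log2 difference 1.95, adjusted p = 0.0424). Their differences were between 0.46 and 0.98 at 72 h and between -0.57 and 0.0045 at 0 h. The genes behind them are not named here.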

How the results depend on the processing

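No gene passed the threshold at 6 d in limma's fit of all 12 arrays (910 at an unadjusted p under 0.05). The count stayed 0 with only the 6 d arrays (343 unadjusted), the mean of probes, array weights and without the 3 arrays named above. It was 4 with an offset of 50 (1 higher, 3 lower), 8 with the authors' table (3 and 5), 7 with median centring (3 and 4), 1 with no filter, 1 with a filter on detection at 6 d, 2 with an intensity trend (both lower), 1 with the 3 arrays as a block and 8 of 21525 with every probe tested on its own. Leaving out 1 array gave 0 to 15, the highest without the second knock-down array of 6 d (10 higher, 5 lower). The replicate block gave 0 (1515 unadjusted), and with it 4 Wnt pathway genes were higher and 5 lower at an unadjusted p under 0.05, 1 and 6 of DNA replication, and 4 and 0 of the cAMP-responsive genes. Replicate numbers are shared by the groups, but deviations of same-numbered arrays correlated above 0.1 in only 7 of 15 pairs of groups (-0.107 to 0.53), so they were not taken as pairs; for the 6 d groups the value was 0.53. Kdm3a passed with an offset of 50 (-1.42, adjusted p = 0.0121), the authors' table (-1.09, 0.00437), median centring (-1.58, 0.0235), no filter (-1.56, 0.0475), the 6 d filter (-1.56, 0.0372), the trend (-1.56, 0.0175), the 3 arrays as a block (-1.56, 0.0397) and every probe (-1.56, 0.0348). It did not with only the 6 d arrays (0.999), the replicate block (0.123), the mean of probes (-1.36, 0.0953), array weights (0.999) or without the 3 arrays (-1.51, 0.0724), and it ran between -1.67 and -1.44 with 1 array left out (adjusted p between 0.0497 and 0.457). The difference between 6 d and 0 h gave 2 genes with the 6 d filter and 0 to 1 with an array left out, and that between 6 d and 72 h gave 0 throughout. The median of genes that had risen by 72 h ran between -0.146 and 0.0269 with an array left out, and that of genes that had fallen between -0.0991 and 0.0954, or -0.0786 without the 3 arrays. Of 1464 values of 93 single genes under alternatives, 1447 kept their direction and side of the threshold, 16 newly passed it and 1 changed sign, Tfcp2l1, at 0.028 without the first knock-down array and -0.63 without the second. Coa3, Defa20 and Pdlim4 passed with an offset of 50 and with the authors' table. The causes were not tested. Genes near background have compressed differences.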

Other observations

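When probes were tested singly at 6 d, a probe of Ahnak, a giant scaffold protein under the plasma membrane, passed the threshold, at 8.61 and 7.63 in knock-down cells, against 5.52 and 5.14 in control cells, where it was undetected (limma adjusted p = 0.0271). The 2 brighter Ahnak probes differed by 0.89 and 0.87 on the log2 scale. The second Defa20 probe had 10.87 and 10.83 in knock-down cells, against 8.77 and 8.53 in control cells (log2 difference 2.20, adjusted p = 0.0348).

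Igfbp6, a binding protein of insulin-like growth factors, had 8.92 and 6.92 in knock-down cells, against 5.80 and 5.63 in control cells, and its log2 difference of 2.21 (limma adjusted p = 0.262) was 3.20 without the second knock-down array (adjusted p = 0.0113). It was chosen after its values were seen.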
